A study of Gallus gallus with 8 samples.

Results

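Semaphorins are guidance proteins, and plexins and neuropilins are their receptors. The transcripts described here are those of the semaphorins SEMA3D and SEMA6D, the plexin PLXNA4 and the neuropilin NRP1, found by gene name on Affymetrix chicken arrays. These 4 of 14168 named genes are covered by 9 of the 38439 probe sets other than controls, 4 for PLXNA4, 3 for SEMA6D and 1 each for SEMA3D and NRP1. The 8 arrays measured inner ear sensory epithelia of the chick: 4 arrays hold utricle, an organ of balance, and 4 hold cochlea, the organ of hearing. All eggs were kept at 38 °C to embryonic day 20 or 21, the animals were untreated as far as the labels say, and each array carried RNA from a pool of 10 to 20 epithelia. The epithelia were dissected to hold hair cells and supporting cells, so each value is a mean over both kinds of cell and over many animals. The labels name the arrays of a tissue biological replicates, and they do not say which animals went into which pool.

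Secreted class 3 semaphorins bind cells through a neuropilin that is paired with a plexin, most often one of the plexin A family. Membrane-bound class 6 semaphorins bind plexin A proteins directly. Plexins carry the signal into the cell, where they act on small GTPases, on kinases and on the CRMP proteins, which together change the cytoskeleton and adhesion. In the mouse inner ear, semaphorin and neuropilin signals are known to steer the axons that grow toward the sensory epithelia. Neuropilins are also receptors for vascular endothelial growth factors (VEGF).

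The 2 tissues differed at all 4 genes. SEMA3D was higher in the cochlea by a factor of 69.6 or more. PLXNA4, NRP1 and SEMA6D were higher in the utricle, PLXNA4 by 365-fold, NRP1 by at least 5.62-fold and SEMA6D by 3.53-fold, each on its brightest probe set. Values are log2 signal after GCRMA, an array normalization whose lowest value here was 2.22. A probe set was tested where its log2 signal was above 4 on at least 4 of the 8 arrays, and a fold is written "at least" where any array of the dimmer tissue lay under 4, with such values raised to 4. Tests are limma's, with p adjusted over all 16223 tested probe sets, and a call is an adjusted p under 0.05.

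Of the 9 probe sets, 8 were tested and 8 were called, 7 toward the utricle and 1 toward the cochlea. Over all tested probe sets 51.5% were called, 26.4% toward the utricle and 25.1% toward the cochlea, and the tissues did not overlap in 48.7%. For NRP1 and for a pair of the PLXNA4 probe sets, only utricle arrays were above the filter, so these had to differ in order to be tested. SEMA3D was above the filter's level on all cochlea arrays and on 1 utricle array. The count of 8 is therefore a description of the probe sets and not support for a shared direction. The 3 SEMA6D probe sets and the brightest PLXNA4 probe set were above that level on all 8 arrays, and each had an exact two-sided permutation p of 0.0286, the smallest that 70 splits can give. The median difference over all tested probe sets was 0.01 on the log2 scale.

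**Figure D1:**
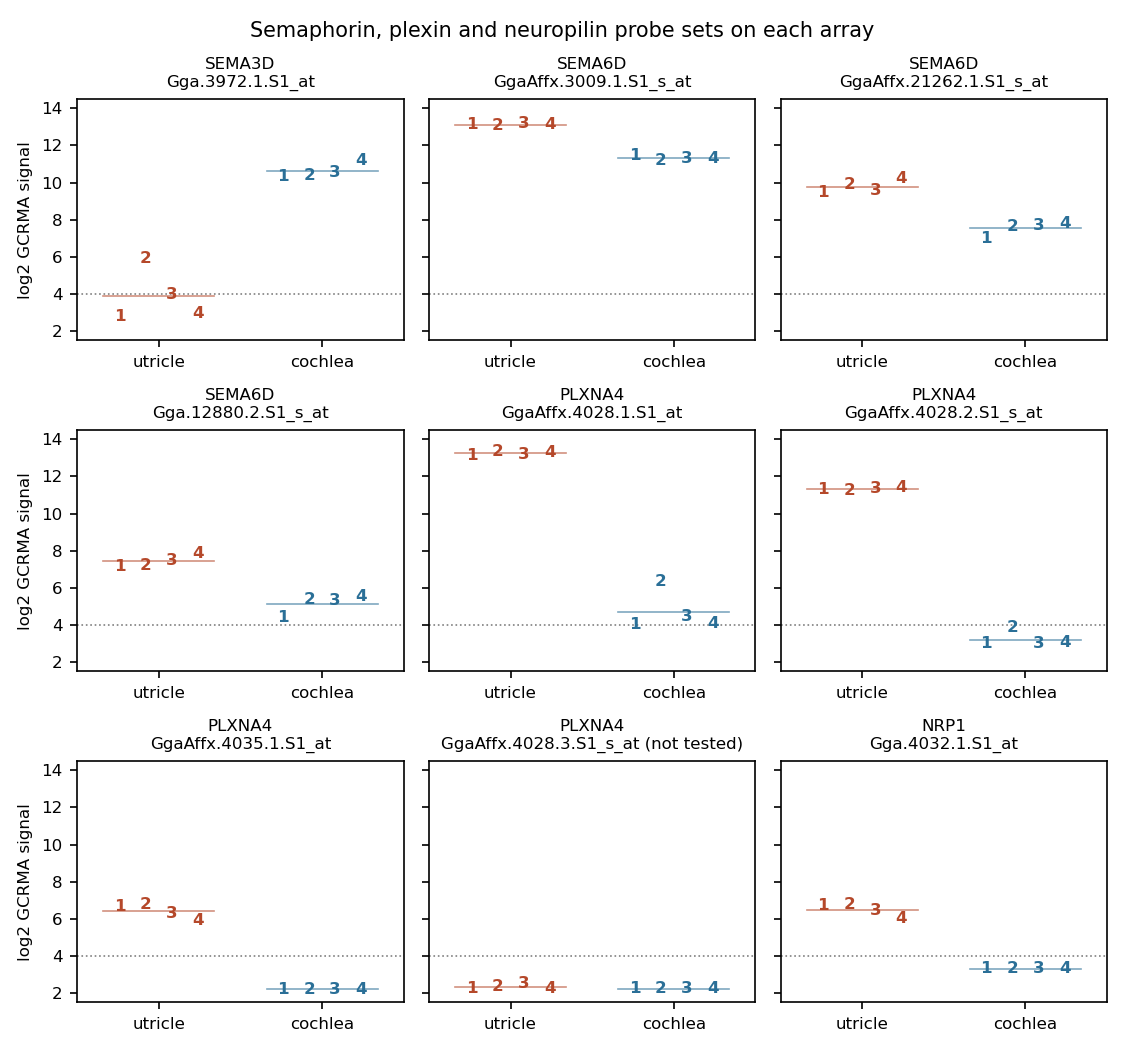
Log2 GCRMA signal of the 9 probe sets on each array, with the array number as the symbol, utricle in red and cochlea in blue, a line at each tissue mean and a dotted line at 4, the level used in the filter. The tissues do not overlap in any of the 8 tested probe sets, and array 2 is the highest array of the dimmer tissue for SEMA3D and for the 2 brightest PLXNA4 probe sets.

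SEMA3D is a secreted class 3 semaphorin, known in zebrafish as an axon guidance cue. Its single probe set read 2.80, 5.90, 3.99 and 2.95 on utricle arrays 1 to 4 and 10.34, 10.37, 10.52 and 11.16 on cochlea arrays 1 to 4. The cochlea arrays lay close together, while the utricle arrays were spread from near the array's lowest value to a clear signal on array 2, and the highest utricle array stayed 4.43 below the lowest cochlea array. The mean was 3.91 ± 1.4 in the utricle and 10.60 ± 0.38 in the cochlea (SD, n = 4 arrays). In whole epithelia, fewer cells that express a gene and less of its RNA per cell cannot be told apart, for SEMA3D or for any gene here. The log2 difference, utricle minus cochlea, was -6.68 (95% confidence interval -8.11 to -5.25, adjusted p = 3.34e-05). By size it ranked 22 among the differences toward the cochlea. The authors' detection calls counted SEMA3D as present on 2 of 4 utricle arrays and 4 of 4 cochlea arrays. Without utricle array 2 the fold was at least 96.8, and without cochlea array 4 at least 61.1, the highest and lowest with 1 array left out.

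SEMA6D is a transmembrane class 6 semaphorin, known in the chick heart as a ligand of plexin A1. Its brightest probe set, GgaAffx.3009.1.S1_s_at, read 13.12, 13.08, 13.15 and 13.13 in the utricle and 11.45, 11.17, 11.27 and 11.30 in the cochlea. Both tissues gave strong signal, and the arrays of a tissue lay so close together that a small fold stood clear of their spread. The difference was 1.82 (1.63 to 2.01, adjusted p = 4.59e-07). The probe set GgaAffx.21262.1.S1_s_at read 9.48, 9.87, 9.57 and 10.19 in the utricle and 7.0, 7.65, 7.71 and 7.78 in the cochlea, a 4.72-fold difference (adjusted p = 3.82e-05). The probe set Gga.12880.2.S1_s_at read 7.17, 7.20, 7.46 and 7.87 against 4.38, 5.35, 5.34 and 5.53, a 4.83-fold difference (adjusted p = 0.000133). In both of these dimmer probe sets cochlea array 1 was the lowest of all arrays, whereas in the brightest one it was the highest cochlea array.

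PLXNA4 is a plexin A receptor, known in mouse neurons to carry the SEMA3A signal together with NRP1 and to bind class 6 semaphorins directly. Its brightest probe set, GgaAffx.4028.1.S1_at, read 13.11, 13.32, 13.18 and 13.31 in the utricle and 4.04, 6.32, 4.46 and 4.07 in the cochlea. The utricle arrays lay close together, and 3 of the cochlea arrays were near the filter's level, with array 2 well above them. The difference was 8.51 (7.46 to 9.56, adjusted p = 1.26e-06). Only 1 tested probe set on the array had a larger difference toward the utricle. Without cochlea array 2 the fold was 527, and without cochlea array 1 it was 311, the highest and lowest with 1 array left out.

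The other tested PLXNA4 probe sets pointed the same way. GgaAffx.4028.2.S1_s_at read 11.31, 11.24, 11.33 and 11.42 in the utricle and 2.98, 3.88, 2.98 and 3.03 in the cochlea, a difference of 8.11 (7.65 to 8.57, adjusted p = 1.74e-08). Its fold toward the utricle was at least 160, and again array 2 was the highest cochlea array. GgaAffx.4035.1.S1_at read 6.68, 6.75, 6.28 and 5.90 in the utricle and 2.22 on every cochlea array, the lowest value of the table. Its difference was 4.18 (3.77 to 4.59, adjusted p = 3.14e-07) and its fold at least 5.29. The deposited annotation puts this probe set, named PLXNA4, under another Ensembl gene number than the other 3, which it names PLXNA4B in the full sheet and PLXNA4 in the detection sheet. The last, GgaAffx.4028.3.S1_s_at, gave no signal above 2.53 on any array and was not tested. It was called present on 2 of 4 utricle arrays and on 0 of 4 cochlea arrays. GgaAffx.4035.1.S1_at was called present on 4 of 4 utricle arrays and on 0 of 4 cochlea arrays. The brighter GgaAffx.4028.1.S1_at and GgaAffx.4028.2.S1_s_at were called present on 4 of 4 arrays of both tissues, so their low cochlear level is not a call of absence.

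The size of the difference was compared between probe sets of 1 gene, in 6 pairs, by an exact two-sided permutation test of the per-array difference. For PLXNA4 the tissue difference of GgaAffx.4035.1.S1_at was 4.33 smaller than that of the brightest probe set and 3.93 smaller than that of GgaAffx.4028.2.S1_s_at. Within a tissue the per-array difference had an SD of 0.83 for the first of these pairs and 0.45 for the second. Each of these had an exact permutation p of 0.0286 and an adjusted p of 0.0857, so neither passed. Since 0.0286 is the smallest p that 70 splits can give, no larger difference in these pairs could have lowered it. The test therefore cannot decide whether these sizes differ. Since GgaAffx.4035.1.S1_at was at the lowest value of the table in the cochlea, its difference was bounded by its own utricle signal. The pair of bright PLXNA4 probe sets differed by 0.40, and the pairs of SEMA6D probe sets by -0.45, -0.42 and -0.03, with exact adjusted p between 0.343 and 0.857.

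NRP1 is the neuropilin through which SEMA3A acts in mouse neurons, and it is also a VEGF receptor. Its single probe set read 6.72, 6.79, 6.46 and 6.0 in the utricle and 3.31, 3.31, 3.31 and 3.33 in the cochlea. The utricle signal was moderate on every array, and the cochlea arrays were nearly identical at a value under the filter's level. The mean was 6.49 ± 0.36 in the utricle and 3.31 ± 0.01 in the cochlea (SD, n = 4). The difference was 3.18 (2.80 to 3.56, adjusted p = 9.75e-07), rank 307 among the differences toward the utricle. The authors called NRP1 present on 4 of 4 arrays of both tissues, so a low cochlear level is not a call of absence.

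**Figure D2:**
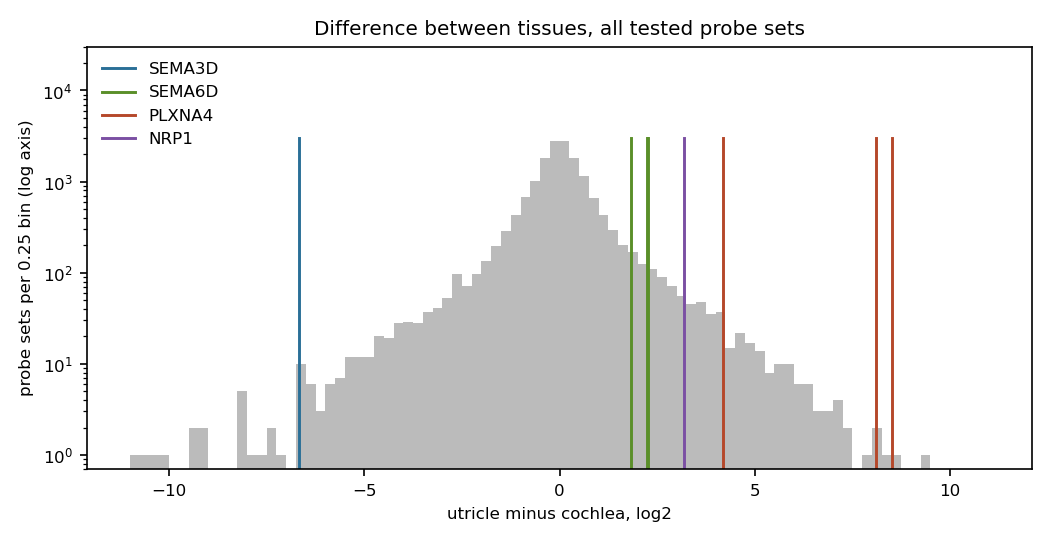
Utricle minus cochlea difference in log2 signal for all 16223 tested probe sets, as a histogram with a log count axis, with a coloured line at each of the 8 tested probe sets of SEMA3D, SEMA6D, PLXNA4 and NRP1. The bright PLXNA4 probe sets at 8.11 and 8.51 and SEMA3D at -6.68 lie in the sparse tails, and SEMA6D and NRP1 lie on the slope toward the utricle.

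The authors' deposited table of their own SAM comparison called the same 8 probe sets in the same directions, each with a q-value of 0%. In the authors' deposited table the fold was 503 and 323 for the bright PLXNA4 probe sets, 18.1 for GgaAffx.4035.1.S1_at and 9.06 for NRP1. For SEMA3D the authors' deposited table gave 106, and for SEMA6D 3.47, 4.67 and 4.85. With no value raised to 4, the plain folds computed here were 9.06 for NRP1, 18.1 for GgaAffx.4035.1.S1_at, 103 for SEMA3D, and 365 and 276 for the bright PLXNA4 probe sets. For NRP1 and GgaAffx.4035.1.S1_at these equalled the folds of the authors' deposited table as printed, and the SEMA3D and SEMA6D folds were close. For the bright PLXNA4 probe sets the authors' deposited table stayed higher, and how the authors formed the fold is not given in the sources used here. SEMA3D is also among 4 semaphorins on a deposited sheet for angiogenesis, with SEMA3F, SEMA4G and SEMA5B.

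Of the other semaphorins, SEMA3A also differed strongly, in the direction opposite to SEMA3D. The list of semaphorin ligands held 20 genes, of which 11 were tested, and 2 were called toward the utricle and 3 toward the cochlea. Over all 8285 tested genes, each represented by its brightest tested probe set, 53.3% were called, 26.6% toward the utricle and 26.7% toward the cochlea. For calls of 2-fold or more the shares were 11.1% and 9.97%. In the list these were SEMA6D and SEMA3A toward the utricle and SEMA3D toward the cochlea. SEMA6D and SEMA3D are themselves genes chosen for this description, so this count is descriptive. The list's median difference was 0.06, beside 0.00 for all genes.

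SEMA3A, the class 3 semaphorin that collapses growth cones of sensory axons in the chick, read 6.76, 7.03, 6.89 and 7.22 in the utricle. It read 2.61, 4.39, 3.58 and 2.43 in the cochlea, where array 2 was again the highest. The difference was 3.72 (2.82 to 4.63, adjusted p = 7.43e-05), at least 7.37-fold. In the RefSeq annotation of the assembly GRCg7b, SEMA3D and SEMA3A are adjacent protein-coding genes and SEMA3E is the next. SEMA3E, whose known receptor in the mouse is plexin D1, was under 4 on every array, between 2.28 and 3.33 in the utricle and 2.22 and 2.25 in the cochlea, and was not tested. Neighbouring genes of 1 class thus had opposite tissue differences.

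**Figure D3:**
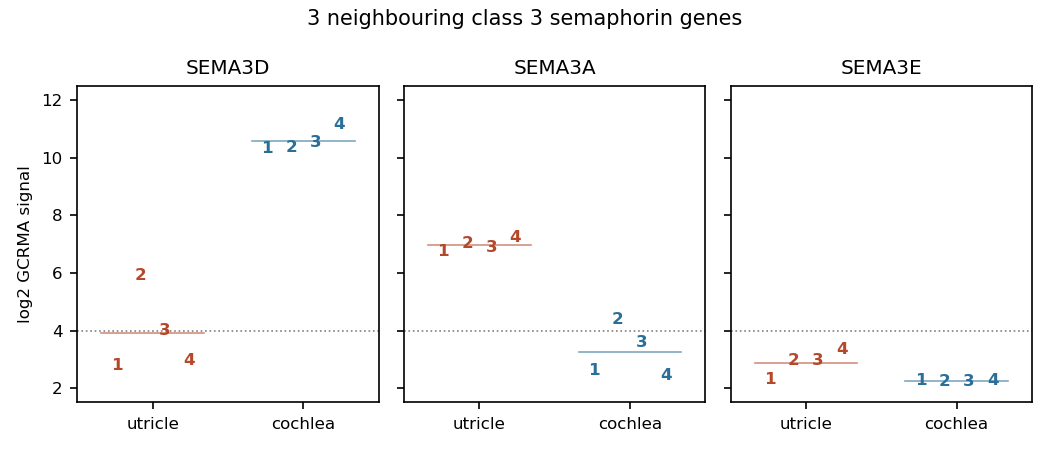
Log2 GCRMA signal of the adjacent genes SEMA3D, SEMA3A and SEMA3E on each array, with the array number as the symbol, a line at each tissue mean and a dotted line at 4. SEMA3D is above 10 on the cochlea arrays, SEMA3A is above 6 on the utricle arrays, and SEMA3E stays under 4 on all 8.

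The other tested ligands gave small differences or ones that did not pass. SEMA3C differed by -0.33 (adjusted p = 0.0456) and SEMA5B, on its brightest probe set, by -0.58 (adjusted p = 0.0422), both toward the cochlea and both under 2-fold. Neither of these calls held when utricle array 1, 2, 3 or 4 or cochlea array 3 was left out, which left 3 ligands called in each case. Neither held with no filter, and either SEMA3C or SEMA5B was lost without cochlea array 1, 2 or 4. A dimmer SEMA5B probe set differed by -0.76 (1.70-fold, adjusted p = 0.0197). SEMA3F read 5.62, 5.67, 5.90 and 6.71 in the utricle and 6.20, 6.98, 7.31 and 9.05 in the cochlea, with overlap between the tissues, and its difference of -1.41 did not pass (adjusted p = 0.0607). With the replicate number as a block, 8 of the 11 ligands passed, with SEMA3F toward the cochlea and SEMA4D and SEMA7A toward the utricle in addition. SEMA3G, SEMA4B and SEMA6A had differences of 0.10, 0.06 and -0.21 that did not pass. SEMA3B, SEMA4G, SEMA5A and SEMA6B were not tested. SEMA3B read 2.68 to 2.82 in the utricle and 2.87 to 4.89 in the cochlea. The brighter SEMA4G probe set read 2.44 to 2.48 in the utricle and 2.48 to 4.90 in the cochlea. SEMA5A and SEMA6B were under 4 on every array.

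Among the receptors, PLXNA2 followed PLXNA4. The list of plexins and neuropilins held 11 genes, of which 5 were tested. Of these, PLXNA4, PLXNA2 and NRP1 were called toward the utricle, all past 2-fold, and PLXNB2 toward the cochlea. Over all genes 53.3% were called, 11.1% of all genes toward the utricle past 2-fold. PLXNA4 and NRP1 are themselves genes chosen for this description, and NRP1 had to differ in order to be tested. The count of receptors is therefore a description and not support for a shared direction. The list's median difference, 3.18, is the value of NRP1 itself, which was tested through its utricle arrays alone, beside 0.00 for all genes. PLXNA2, a plexin A receptor for class 3 and class 6 semaphorins, read 11.32, 11.26, 10.80 and 11.34 in the utricle and 5.99, 8.04, 7.42 and 6.85 in the cochlea. This was a difference of 4.10 (3.22 to 4.99, adjusted p = 3.51e-05), a 17.2-fold difference, and the second PLXNA2 probe set had a difference of 3.11. On the brighter PLXNA2 probe set the cochlear signal was above 4 on every array, with array 2 again the highest. The second read 2.26 to 2.47 in the cochlea, under 4 as NRP1 did, and was tested through its utricle arrays alone.

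PLXNB2, a plexin B receptor for class 4 semaphorins, read 6.91, 6.87, 6.57 and 6.54 in the utricle and 7.94, 7.22, 7.30 and 7.66 in the cochlea, a difference of -0.81 (adjusted p = 0.00469). PLXNA1, a receptor of SEMA6D in the chick heart, read 4.77 to 4.82 in the utricle and 4.77 to 5.62 in the cochlea on its 1 tested probe set. Its difference of -0.35 (-0.74 to 0.05) did not pass. The other PLXNA1 probe sets read no higher than 2.91 on any array. The authors' detection calls gave no count for any PLXNA1 probe set. NRP2, the other neuropilin, was no higher than 2.33 on any array on its 2 probe sets and was not tested. PLXNC1 and PLXND1 were likewise under 4 on every array. At these levels no tissue difference could be measured for those 3 receptors.

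**Figure D4:**
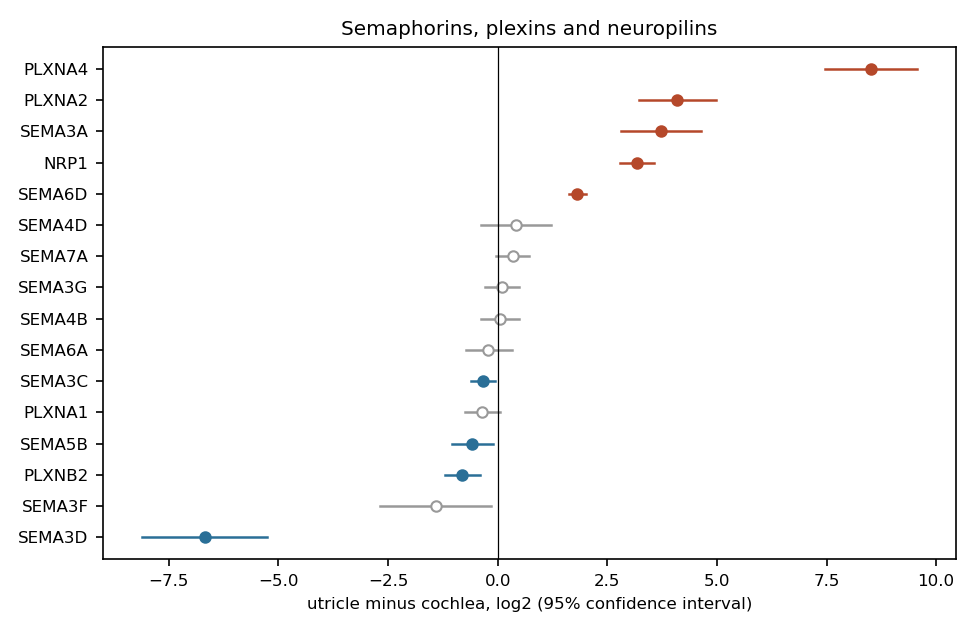
Utricle minus cochlea difference in log2 signal with its 95% confidence interval for the 16 tested semaphorin, plexin and neuropilin genes, each by its brightest tested probe set. Filled points passed the adjusted p threshold, 5 toward the utricle and 4 toward the cochlea, and open points did not. The intervals are not adjusted for the number of tests, and that of SEMA3F lies below 0 although it did not pass.

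Proteins that partner with semaphorin receptors gave smaller differences. Of 18 listed coreceptors and partners 4 were tested, and 2 were called in each direction, against 53.3% called over all genes. NRCAM, an adhesion protein of the L1 family, read 8.39, 8.33, 8.17 and 8.30 in the utricle and 7.27, 7.11, 7.13 and 6.94 in the cochlea, a 2.27-fold difference (adjusted p = 1.42e-05). The kinase-like receptor PTK7 differed by 0.75, the adaptor GIPC2 by -0.82 and the integrin chain ITGB1 by -0.53. ITGB1 lies beside NRP1 in the RefSeq gene order, and it was higher in the cochlea where NRP1 was lower.

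Among genes that act inside the cell in semaphorin signalling, 23 of 36 listed were tested. Of these 11 were called toward the cochlea and 4 toward the utricle, and 8 did not pass, where over all genes 26.7% and 26.6% were called in those directions. Their median difference was -0.26, beside 0.00 for all genes, and 3 in each direction passed 2-fold. RRAS2, a Ras-family GTPase, read 10.31, 10.52, 10.09 and 10.15 in the utricle and 13.42, 13.48, 13.25 and 13.19 in the cochlea, where it was 8.38-fold higher (adjusted p = 1.77e-07). FYN, a Src-family kinase that binds plexin A proteins, was 4.00-fold higher in the cochlea, and MICAL1, an oxidase that takes actin filaments apart, at least 3.27-fold. Toward the utricle, MICAL3 was 3.46-fold, RND3 2.53-fold and the CRMP family member DPYSL3 2.46-fold higher.

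The CRMP family, named for its part in the response to SEMA3A, was divided. DPYSL2 differed by 0.48 and DPYSL3 by 1.30, both toward the utricle, while DPYSL4 differed by -0.89, with 1 utricle array under 4, and CRMP1 by -0.75. With no filter DPYSL2 and DPYSL4 did not pass, at adjusted p of 0.0547 and 0.0859. DPYSL2 was also lost without both arrays numbered 2 (0.0528), and DPYSL4 on the arrays of the larger name prefix alone (0.0678). CRMP1 read 9.51, 9.92, 9.67 and 9.58 in the utricle and 10.45, 10.38, 10.33 and 10.52 in the cochlea. A dimmer CRMP1 probe set differed by -1.41 (2.66-fold, adjusted p = 4.22e-05). A dimmer DPYSL3 probe set differed by 0.59 and did not pass (adjusted p = 0.0543). The GTPases RAC1 and RHOA differed by -0.67 and -0.54, less than 2-fold on these probe sets. A dimmer RAC1 probe set differed by -1.15 (2.22-fold, adjusted p = 0.00382), and dimmer RHOA probe sets by -0.85 and -0.93. CDK5, GSK3B and LIMK1 had differences of -0.29, 0.10 and -0.10 that did not pass.

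**Figure D5:**
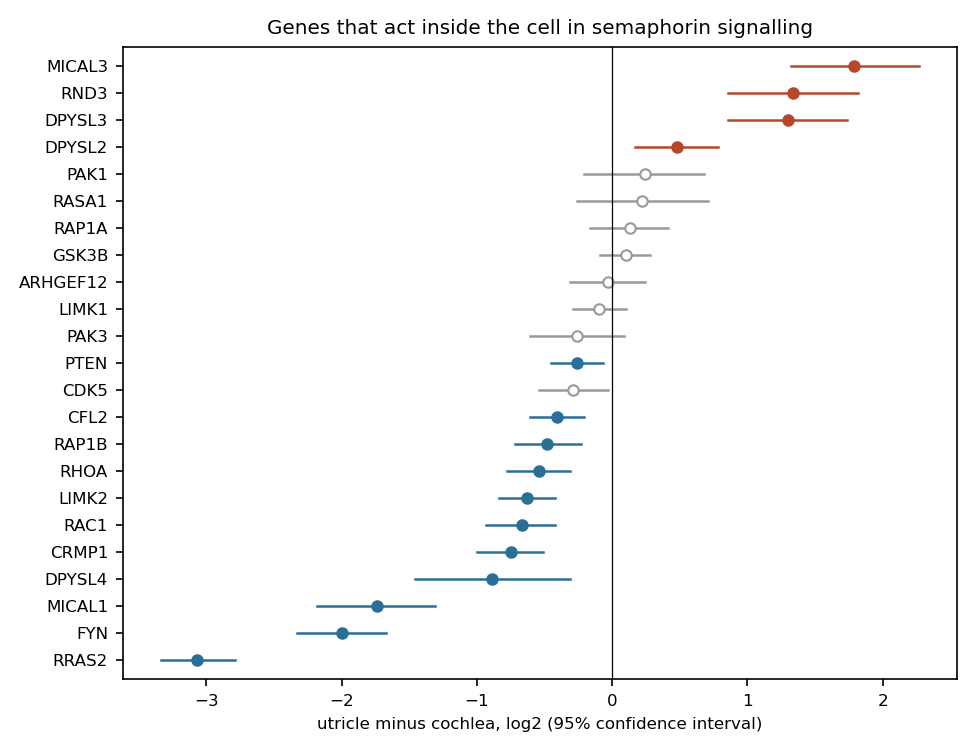
Utricle minus cochlea difference in log2 signal with its 95% confidence interval for the 23 tested genes that act inside the cell in semaphorin signalling, each by its brightest tested probe set. Filled points passed the adjusted p threshold, 4 toward the utricle and 11 toward the cochlea, with RRAS2 at -3.07 and MICAL3 at 1.79 at the ends.

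On the VEGF side of NRP1, ligands gave signal, and the receptors with a named probe set, KDR and FLT1, did not. Of 7 listed VEGF ligands and receptors 5 had a named probe set and 3 were tested. The ligand PGF and the receptor FLT4 had no named probe set, so nothing can be said of them. VEGFD, a growth factor of lymphatic vessels, read 5.01, 4.99, 5.32 and 5.41 in the utricle and 3.57, 3.57, 3.55 and 3.34 in the cochlea, a fold of at least 2.27 (adjusted p = 6.98e-06). It too was above 4 on utricle arrays alone, so it had to differ in order to be tested. VEGFA, the ligand of NRP1 in blood vessels, ranged from 8.53 to 9.70 in the utricle and from 7.99 to 9.86 in the cochlea, and its difference of 0.20 (-0.75 to 1.15) did not pass. The VEGF receptors KDR and FLT1 stayed at the lowest values of the table and were not tested.

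Markers of the labelled cell types gave signal in both tissues. Of 11 tested hair cell markers 6 were called toward the utricle and 4 toward the cochlea, and of 9 supporting cell markers 3 were called in each direction. Over all genes 53.3% were called, 26.6% toward the utricle and 26.7% toward the cochlea. The median difference of the hair cell markers was 0.79, beside 0.00 for all genes. Past 2-fold, 5 hair cell markers were called toward the utricle and 1 toward the cochlea, where the shares of all genes were 11.1% and 9.97%. The summed linear signal of the hair cell markers was 35300 to 41000 in the utricle and 8000 to 11300 in the cochlea, and that of the supporting cell markers 107000 to 113000 and 103000 to 112000. Most of the gap in the hair cell sum came from the calcium-binding protein CALB2, which read 14.66 to 14.74 in the utricle and 8.59 to 9.08 in the cochlea. Without CALB2 the sum of the other 10 was 9450 to 13600 in the utricle and 7620 to 10900 in the cochlea, with overlap. These sums without single markers, here and below, were chosen after the data were seen. The part of cell numbers in the differences of the 4 genes was not tested.

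Of the markers of other cells, the 5 tested for leukocytes all went one way. Of 7 tested neuron markers 4 were called toward the cochlea and 2 toward the utricle. NEFM and NTRK2 were above 4 on cochlea arrays alone and NTRK3 on utricle arrays alone, so these had to differ in order to be tested. NEFH, STMN2, SYT1, NEUROD1 and THY1 were under 4 on every array and were not tested. The summed signal of the 7 tested neuron markers was 21900 to 26700 in the cochlea and 3990 to 5780 in the utricle. Most of it came from the transcription factor ISL1, at 13.61 to 14.11 against 11.44 to 12.16, and the neurofilament NEFM, at 12.79 to 12.86 against 2.43 to 2.87. Without this pair the sum of the other 5 was 1630 to 1960 in the cochlea and 1190 to 1280 in the utricle. All 5 tested leukocyte markers were called toward the utricle, as PLXNA4, NRP1 and SEMA6D were, against 26.6% of all genes. The summed signal of these markers was 4250 to 5260 in the utricle and 1660 to 2230 in the cochlea. CD74 was the brightest, at 11.14 to 11.65 against 9.34 to 10.15, then CD3E, at 10.63 to 10.75 against 9.92 to 10.27. LAPTM5 was above 4 on utricle arrays alone. PTPRC, SPI1 and CD83 were under 4 on every array and were not tested. Of 4 tested fibroblast markers limma called 0, with 1 at an unadjusted p under 0.05 and 0 with the replicate block. Of 5 tested glial markers 1 passed in each direction, and S100B, called toward the cochlea, was above 4 on cochlea arrays alone. Of 14 endothelial markers with a probe set, 11 were not tested, among them KDR, FLT1, CDH5 and TEK. Of the other 3, CLDN5 (at least 8.86-fold) and EGFL7 (2.59-fold) were called toward the cochlea and PECAM1 (1.34-fold) toward the utricle. The tissues overlapped for EGFL7 and PECAM1, and the dimmer PECAM1 probe sets did not pass. PECAM1 was the brightest of the 3, at 10.70 to 11.34 in the utricle and 10.54 to 10.70 in the cochlea. Summed signal overlapped between the tissues for fibroblast markers (11900 to 13200 in the utricle, 9270 to 17600 in the cochlea), glial markers (5850 to 12400 and 6740 to 8160) and endothelial markers (1790 to 2700 and 1930 to 2420). The part of all these cells in the values of the 4 genes was not tested.

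In the dimmer tissue, array 2 was more often the highest than any other single array. This was counted over called probe sets at least 16-fold apart, with at least 1 array of the dimmer tissue at 4 or above. The 4 genes were left out. Among the 81 such probe sets higher in the utricle, cochlea array 2 was the highest cochlea array in 43.2% and array 4 in 32.1%. The median signal of those probe sets was nonetheless 5.66 on array 2, below 5.69 on array 3 and 5.74 on array 4. Among the 83 such probe sets higher in the cochlea, utricle array 2 was the highest utricle array in 45.8% and array 3 in 20.5%. Array 2 also had the highest median there, 6.32. Without both arrays numbered 2, a choice made after the data were seen, the fold of PLXNA4 was 517 and that of SEMA3D at least 102. The calls of both held. The array names carry a pair of numeric prefixes, the smaller on 1 array of each tissue, too few for a value of its own. On the 6 arrays of the larger prefix alone the differences were 8.32 for PLXNA4, -6.40 for SEMA3D, 1.87 for SEMA6D and 3.10 for NRP1, and with the prefix as a block they were 8.51, -6.68, 1.82 and 3.18, with adjusted p from 1.46e-06 to 0.000666.

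Patterns across the 8 arrays were compared by Pearson's r over 6523 other genes with a symbol. These correlations are descriptive, since the tissues form separate groups and the 4 arrays of a tissue share it. The genes most like PLXNA4 were OTOL1 (r = 0.9979), an otolith protein, MARK3 (0.9977) and HOMER3 (0.9972). For SEMA3D they were the transcription factor EMX2 (0.9952), the lipase MGLL (0.9942) and CRMP1 (0.9938). EMX2 read 5.28, 7.05, 6.01 and 5.62 in the utricle and 10.02, 10.39, 10.21 and 10.16 in the cochlea, with the same order of utricle arrays 2 and 3 above 1 and 4 as SEMA3D. For SEMA6D they were IGSF10 (0.9990), OSBPL1A (0.9986) and the collagen COL15A1 (0.9985), and for NRP1 the kinase MAK (0.9981), SMC2 (0.9965) and the G protein chain GNG13 (0.9960).

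With the tissue means taken away, other genes were the most alike. For SEMA3D the closest genes were FAM19A5 (r = 0.9668), FGF20 (0.9657) and SOX5 (0.9513). FGF20, a growth factor of the developing mouse cochlea, read 7.38, 8.66, 7.80 and 7.28 in the utricle, highest on array 2 like SEMA3D, and 2.45 to 2.49 in the cochlea. For PLXNA4 the closest were NPTX2 (0.9874), USP47 (0.9854) and STK25 (0.9800), with cochlea array 2 the highest cochlea array in each. That array read 6.68 against 6.35 to 6.41 for NPTX2, 4.5 against 4.13 to 4.22 for USP47 and 4.2 against 4.1 for STK25. USP47 and STK25 were near the filter's level and nearly flat on all other arrays. For SEMA6D the closest were BRCC3 (0.9776), PXMP4 (0.9717) and KCTD20 (0.9698), and for NRP1 SEC61B (0.9835), PRKAG2 (0.9743) and PPFIBP1 (0.9613).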

How the data were processed

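Genes and gene lists were chosen with earlier results of these data known. The authors deposited log2 GCRMA signal, made by background correction for GC content, quantile normalization and median polish, per the notes in their workbook. The version of GCRMA is not given in the sources used here. Their SAM sheets hold the fold as a ratio and a q-value in percent, per the file headers. The deposited detection sheet counts present calls per tissue, and the deposited angiogenesis sheet holds mean signal per tissue and was used for its gene names alone. A further 136 per-array columns of the workbook were not used.

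Probe sets were named from the deposited sheets and from RefSeq genes of GRCg7b (17902 through RefSeq), and 26 by hand. Tissues were compared by the functions lmFit and eBayes of limma 3.58.1 under R 4.3.3, with tissue as the only term, two-sided, and Benjamini-Hochberg adjustment over 16223 probe sets, after a test on simulated data. Ranges are 95% confidence intervals. Tables were made with Python 3.11.15. Between 41.0% and 41.8% of probe sets on an array were above 4, and the number of arrays limits the precision. Arrays correlated at 0.9929 to 0.9971 within a tissue and at 0.9619 to 0.9695 between tissues.

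The text names the 4 genes with every probe set, listed genes past the threshold with a 2-fold difference, some listed genes that did not pass, and the 3 genes most alike by each correlation. Listed genes called under 2-fold, the choice among those that did not pass, listed genes that were not tested and single markers were named after their values were seen.

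Both tissues use the same replicate numbers. Across tested probe sets, same-numbered arrays deviated from their tissue means together, with r of 0.552, 0.48, 0.404 and 0.144, all above 0.1. The numbers were used as pairs in the replicate block and in the sign flips, and not in the main fit or the exact tests. Sign flips within 4 pairs can give no p under 0.125. This pairing rests on the data alone, and for cochlea array 4 the r with utricle array 3 was larger, at 0.304. Alternatives were no filter, a filter at 6, renormalization by quantiles or medians, eBayes with trend, array weights, the replicate block, the array-name prefix as a block, and leaving out arrays.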

Additional observations from a re-analysis of the deposited data

Results flagged for a closer look

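Among 32 sets of 4 arrays with signal above 4, for the 9 probe sets and the listed genes past 2-fold, 4 held an array whose gap to its neighbour, divided by the whole range, was above Dixon's critical value at 95%. Chance alone flags about 1 in 20 such sets. SEMA6D stood out by cochlea array 1 in its dimmer probe sets, at 4.38 against 5.34 to 5.53 in Gga.12880.2.S1_s_at and at 7.0 against 7.65 to 7.78 in GgaAffx.21262.1.S1_s_at, and these share the array. PLXNA2 stood out by utricle array 3, at 10.80 against 11.26 to 11.34. RND3 stood out by cochlea array 2, at 7.55 against 6.90 to 6.94.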

How the results depend on the processing

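The direction and the call of SEMA3D, SEMA6D, PLXNA4 and NRP1 held on all 8 tested probe sets under every alternative that gave a value. Over the alternatives the log2 difference of the brightest probe set ran from 6.93 to 9.04 for PLXNA4, from -7.42 to -6.31 for SEMA3D, from 1.77 to 2.11 for SEMA6D and from 3.08 to 3.34 for NRP1. The low end of 6.93 for PLXNA4 and the high end of 2.11 for SEMA6D are not values of the brightest probe set. Each comes from the mean over the 3 tested probe sets of the gene. With the replicate block the count of semaphorin ligands called went from 5 to 8, and the block changed no other count by over 1.5 times. That count was 3 with no filter, 3 with the filter at 6 and 3 without both arrays numbered 2, and it ran from 3 to 6 when 1 array was left out. With the filter at 6 the count of VEGF ligands and receptors called went from 1 to 0, since VEGFD was no longer tested. Reversals came only among listed genes whose difference had not passed. With 1 array left out SEMA3G ran from -0.02 to 0.20, SEMA4B from -0.08 to 0.23, ARHGEF12 from -0.11 to 0.02, VEGFA from -0.06 to 0.58 and VEGFC from -0.13 to 0.03. SEMA4B was at -0.01 on the arrays of the larger name prefix alone, and VEGFA at -0.00 without both arrays numbered 2. The cause was not tested. No depth exists for arrays, and a signal under 4 gives only a bound.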
